A study of Homo sapiens with 12 samples.

Results

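Chromatin accessibility was examined at the loci of 40 genes of absorptive enterocytes and their brush border in HCT116 cells. A locus was taken as the GENCODE v44 body of a gene on hg38 extended by 10 kb on either side, and its members were the accessible regions of the count table that overlapped it. Of 30170 regions, 57 met this rule, and they fell at 22 of the 40 genes (55.0%), where 13176 of 20046 protein-coding genes (65.7%) had a region. The other 18 genes, MYO1A, ANPEP, SI, ALPI, FABP1, CA1, SLC26A3, SLC9A3, AQP8, GUCA2A, MUC13, MUC17, PHGR1, TMIGD1, CLCA4, SLC5A1, SLC15A1 and APOB, had no region, so they carry no count rather than a count of 0. All 57 regions passed the filter on low counts.

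HCT116 is an established human colorectal carcinoma line. ATAC-seq, in which a transposase cuts accessible DNA so that counts are high where chromatin is open, was performed on 4 derivatives with 3 libraries each. The EV line carried an empty vector, the EHF line carried the ETS-family transcription factor EHF, the CDX1 line carried the caudal homeobox transcription factor CDX1, and the EHF+CDX1 line carried both. EHF and its empty vector were introduced as plasmids followed by isolation of geneticin-resistant clones, CDX1 was introduced by a retrovirus with a GFP marker followed by sorting, and the EHF+CDX1 line was derived from the CDX1 line by transfection with EHF, so that clone and factor cannot be told apart. The study speaks of a representative ATAC-seq experiment, but the sources used here do not state how the 3 libraries of a line relate to separate cultures, and p-values measure only the spread between these libraries.

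The libraries held 567366 to 2443334 counts. Reads over the exons of the introduced genes followed the labels, with 91907 to 1536042 counts over EHF exons in the lines carrying EHF against 30 to 100 in the others, and 77147 to 1916479 over CDX1 exons in the lines carrying CDX1 against 18 to 104. Outside those exons and mitochondrial-like sequence, 145690 to 455557 counts remained in 11 libraries and 909311 in EHF+CDX1 replicate 2, which therefore stood apart in depth. Its total was 1691958, of which 53.7% lay outside, against 17.4% and 16.3% in replicates 1 and 3 of that line. It held 91907 counts over EHF exons, against 759842 and 615080, and 77147 over CDX1 exons, against 545352 and 310557. The cause of this lower signal of the introduced genes in EHF+CDX1 replicate 2 was not tested. Levels are given below as CPM, which here is the count per 1000000 of the effective library size (total count times its trimmed mean of M values factor), and 3 counts were worth 0.68 CPM in that library and 4.52 CPM in EV replicate 3. As for the labelled cell type, all 7 epithelial marker loci had a region, with a summed CPM of 85.9 to 107 in EV and 146 to 176 in EHF+CDX1, whereas 3 of 5 fibroblast loci summed to 20.7 to 25.1 and 23.8 to 27.9 and 4 of 5 leukocyte loci to 33.8 to 41.4 and 34.5 to 42.4. Among loci of secretory intestinal cells, 9 of 16 had a region, with 22.6 to 32.4 CPM in EV and 33.3 to 62.6 in EHF+CDX1. These sums cover different numbers of loci, so their sizes cannot be compared between the lists. The part of other cell types in the results was not tested.

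Enterocytes are the absorptive cells of the intestinal lining. Their apical surface carries a brush border of microvilli, each built on a core of bundled actin, linked at the tips by protocadherins and studded with digestive enzymes, transporters and membrane-bound mucins. These genes are switched on as cells leave the crypt and mature, and caudal homeobox factors and the ETS-family factor EHF are both expressed in the intestinal epithelium.

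The regions below are shown because 3 of them differed between lines and the other, at the start of PLS1, was among the better covered starts. Coordinates are hg38 with both ends included, the letters are of the plus strand of the reference, and capitals mark matches to TTTATG or TTTATT (the core bound by caudal homeobox factors) or to AGGAAGT or CGGAAGT (a core bound by ETS factors), searched on both strands.
DPP4 (chr2:162027845-162027995, within the gene): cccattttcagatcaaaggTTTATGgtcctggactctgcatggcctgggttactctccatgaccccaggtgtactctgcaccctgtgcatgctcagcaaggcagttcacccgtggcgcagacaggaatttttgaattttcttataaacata
LGALS4 (chr19:38813046-38813196, upstream of the gene): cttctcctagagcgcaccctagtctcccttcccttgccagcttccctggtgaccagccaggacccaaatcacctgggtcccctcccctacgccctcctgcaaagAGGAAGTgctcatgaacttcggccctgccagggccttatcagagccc
CEACAM6 (chr19:41774597-41774747, downstream of the gene): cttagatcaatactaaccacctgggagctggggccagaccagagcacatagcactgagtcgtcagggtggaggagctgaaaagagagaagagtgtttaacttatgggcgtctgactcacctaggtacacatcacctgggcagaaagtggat
PLS1 (chr3:142596187-142596351, upstream of the gene): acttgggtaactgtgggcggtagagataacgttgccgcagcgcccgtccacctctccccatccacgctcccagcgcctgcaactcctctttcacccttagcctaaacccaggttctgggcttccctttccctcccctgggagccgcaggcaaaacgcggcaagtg

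The DPP4 region held 1 match to the caudal core and the LGALS4 region 1 match to the ETS core, and the other 2 sequences held neither. Their GC content was 48.3% at DPP4, 61.6% at LGALS4, 51.0% at CEACAM6 and 61.8% at PLS1. Over all members, the caudal core was present in 16 of 57 regions (28.1%) and in 4664 of 30170 regions of the table (15.5%). Most regions had the shortest length in the table, 150 by start and end, and among those the shares were 32.4% of 37 members and 17.9% of 17356 regions. The ETS core was present in 14.0% of members and 10.3% of all regions, and in 8.11% and 8.19% of those of the shortest length. These are counts of letters, with no measurement of binding.

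Among the 6 genes of brush border hydrolases, DPP4, which encodes a dipeptidyl peptidase of the apical membrane, was higher in EHF+CDX1 than in each of the other 3 lines. Its 4 regions together held 30, 127 and 16 counts in EHF+CDX1, against 4, 9 and 4 in EV, 6, 22 and 8 in the EHF line and 4, 17 and 10 in the CDX1 line, replicates 1 to 3 in order. As CPM the EHF+CDX1 libraries had 13.3 to 28.8, those of EV 4.36 to 6.21, of EHF 5.50 to 8.96 and of CDX1 3.80 to 11.8, and every EHF+CDX1 library lay above all 9 others. The log2 fold change was 1.89 ± 0.44 (SE) against EV (adjusted p = 0.012), 1.46 ± 0.38 against EHF (adjusted p = 0.027) and 1.41 ± 0.39 against CDX1 (adjusted p = 0.05, just under the threshold), whereas EHF against EV gave 0.43 ± 0.50 and CDX1 against EV 0.48 ± 0.51, both short of the threshold.

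Within DPP4, the region whose sequence is given above lay 46295 bases into the gene and was the only one of the 4 that was called. It held 10, 39 and 10 counts in EHF+CDX1, against 1, 3 and 0 in EV, 0, 2 and 0 in the EHF line and 2, 7 and 4 in the CDX1 line. Against EHF the log2 fold change was 3.99 ± 0.86 (adjusted p = 0.0015), and the ratio of pooled counts was 18.8 (95% exact counting interval 4.97 to 159); such intervals cover counting error only. Against EV it was 2.53 ± 0.78 (adjusted p = 0.053). The region at the DPP4 start held 3, 6 and 2 counts in EV and 13, 29 and 2 in EHF+CDX1, a log2 fold change of 0.65 ± 0.62. The region call against EHF was kept in 11 of 12 fits that left out 1 library and ended without EHF+CDX1 replicate 2 (3.82, adjusted p = 0.054). The locus call against EV also ended when replicate 2 (0.068) or 3 (0.055) of EV or replicate 2 of EHF+CDX1 (0.18) was left out, that against EHF without EHF replicate 1 (0.13), EHF replicate 3 (0.088) or EHF+CDX1 replicate 2 (0.45), and that against CDX1 in 8 of 12 such fits, with adjusted p up to 0.39, holding only without EV replicate 1, EV replicate 2, EHF replicate 2 or EHF+CDX1 replicate 3.

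MEP1A encodes a subunit of the metalloprotease meprin. Its only region, 3081 bases upstream of the start, held 1, 0 and 0 counts in EV, 0, 2 and 0 in EHF, none in the 3 CDX1 libraries and 4, 23 and 3 in EHF+CDX1. Every EHF+CDX1 library was above all 9 others in CPM, but no comparison passed the threshold (adjusted p = 0.18 against EV, 0.16 against EHF and 0.065 against CDX1). The region passed the filter on low counts only through EHF+CDX1 replicate 2, so these differences partly follow from the filter. The pooled ratio was 12.5 against EV (2.07 to 509) and 9.54 against EHF (2.42 to 82.4), and against CDX1 it was at least 5.44-fold higher, taking 3 counts over the 3 CDX1 libraries as the limit. LCT, which encodes lactase, pooled 14, 24, 12 and 23 counts in EV, EHF, CDX1 and EHF+CDX1, and its log2 fold change against EV was -0.42 ± 0.63. ANPEP, SI and ALPI, for aminopeptidase N, sucrase-isomaltase and intestinal alkaline phosphatase, had no region.

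**Figure D1:**
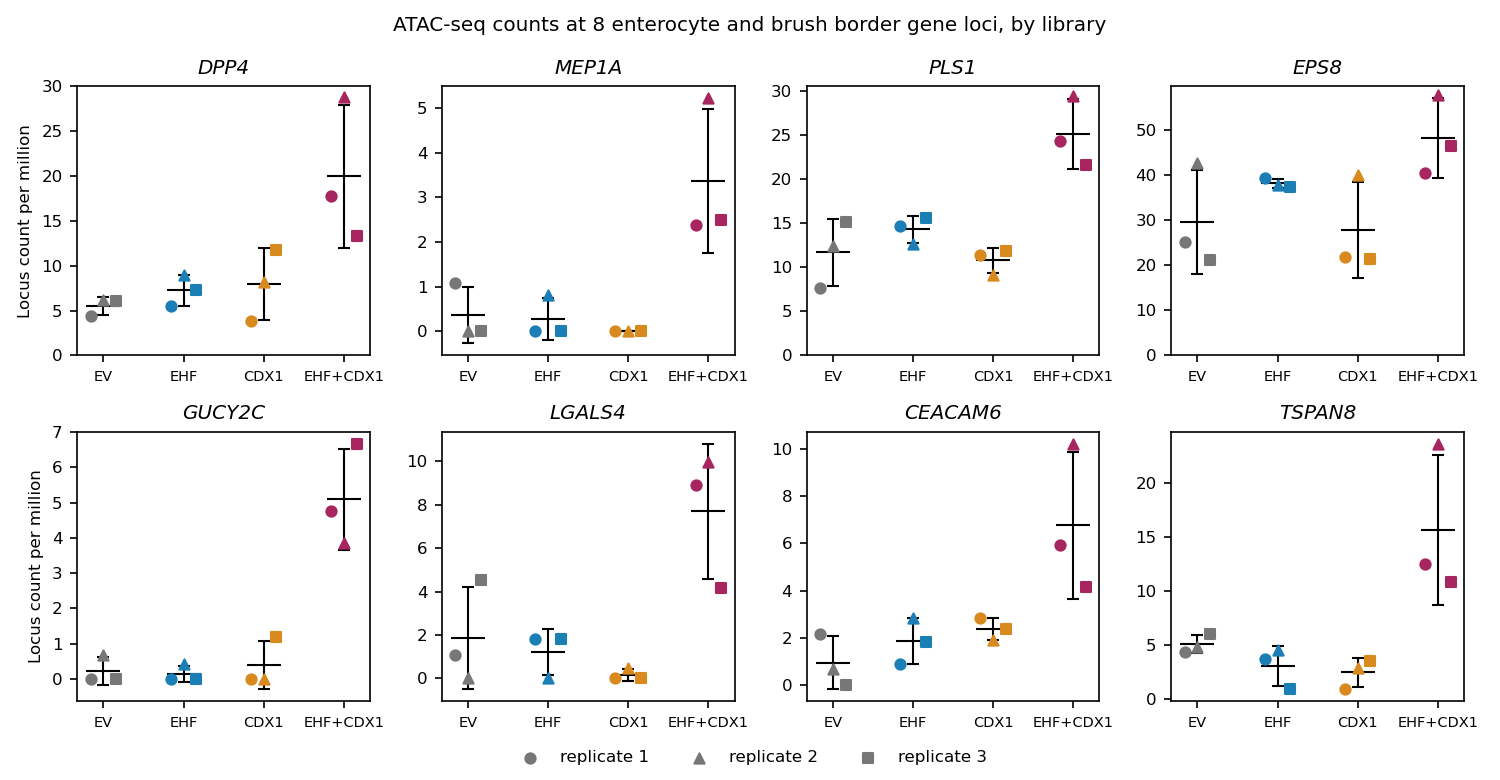
CPM at 8 loci (vertical axis, one scale per panel) in the 3 libraries of each line (horizontal axis), with symbols for the replicate number and black bars for the mean ± SD. At DPP4, MEP1A, PLS1, GUCY2C, CEACAM6 and TSPAN8 all 3 EHF+CDX1 libraries lie above the other 9, while at LGALS4 EV replicate 3 (4.52) lies above EHF+CDX1 replicate 3 (4.16) and at EPS8 EV replicate 2 (42.8) lies above EHF+CDX1 replicate 1 (40.4).

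In guanylin signalling, GUCY2C encodes the receptor guanylate cyclase that binds guanylin, and its only region spanned the gene start. That region held 8, 17 and 8 counts in EHF+CDX1, against 0, 1 and 0 in EV, 0, 1 and 0 in the EHF line and 0, 0 and 1 in the CDX1 line. The 9 other libraries thus had at most 1 count each, and the mean level was 5.09 ± 1.43 CPM (SD, n = 3) in EHF+CDX1 against 0.23 ± 0.398 in EV. EHF+CDX1 replicate 3 had the highest of the 3 levels (6.66 CPM) and replicate 2 the lowest (3.86 CPM). The region was called against EHF (log2 fold change 4.16 ± 1.28, adjusted p = 0.041), with a pooled ratio of 21.0 (3.51 to 854), and missed the threshold at the locus level against EV (adjusted p = 0.087) and CDX1 (0.074). It passed the filter on low counts only through EHF+CDX1 libraries, so these differences partly follow from the filter and are no independent support. The call against EHF ended when any of the 3 EHF or 3 EHF+CDX1 libraries was left out, with adjusted p from 0.058 to 0.12. The ligand gene GUCA2A had no region.

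The group of surface proteins and other enterocyte genes had 7 of 11 genes with a region, and all 7 loci had positive log2 fold changes for EHF+CDX1 against each of the other 3 lines, with medians of 2.08 against EV, 1.89 against EHF and 1.62 against CDX1. TSPAN8, a tetraspanin of the epithelial surface, had the smallest adjusted p of the member loci. Its 5 regions together held 21, 104 and 13 counts in EHF+CDX1, against 4, 7 and 4 in EV, 4, 11 and 1 in the EHF line and 1, 6 and 3 in the CDX1 line. The levels were 10.8 to 23.6 CPM in EHF+CDX1, compared with 4.36 to 6.02 for EV, 0.915 to 4.48 for EHF and 0.95 to 3.55 for CDX1, so that EHF+CDX1 did not overlap any other line. The log2 fold change was 1.71 ± 0.49 against EV (adjusted p = 0.047), 2.28 ± 0.48 against EHF (0.0036) and 2.68 ± 0.52 against CDX1 (0.0021). EHF replicate 3 (0.915 CPM) and CDX1 replicate 1 (0.95 CPM) were the lowest, but neither line differed from EV by the test (-0.58 ± 0.61 and -0.97 ± 0.65).

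None of the 5 TSPAN8 regions passed the threshold alone. The largest fitted difference from EV was at the region chr12:71139230-71139380, 18694 bases into the gene, in an exon 30 bases from an annotated alternative start. It held no count in the EV and CDX1 libraries, 1 in EHF, and 3, 18 and 2 in EHF+CDX1. This region passed the filter on low counts only through EHF+CDX1 replicate 2, so its difference partly follows from the filter. The region at the main gene start held 0, 3 and 0 counts in EV and 3, 27 and 1 in EHF+CDX1. Leaving out EHF+CDX1 replicate 2 ended the locus calls against EHF (1.80, adjusted p = 0.22) and CDX1 (2.19, 0.16), and no other left-out library did. The call against EV was lost in 8 of 12 such fits, with adjusted p of 0.053 to 0.34, and held only without EHF replicate 2, EHF replicate 3, CDX1 replicate 2 or EHF+CDX1 replicate 3.

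LGALS4 encodes a galectin of the intestinal epithelium, and its only region lay 176 bases upstream of the start. It held 15, 44 and 5 counts in EHF+CDX1, against 1, 0 and 3 in EV, 2, 0 and 2 in the EHF line and 0, 1 and 0 in the CDX1 line. The CDX1 libraries were the lowest, and EHF+CDX1 overlapped EV alone. The log2 fold change of the region was 4.63 ± 1.02 against CDX1 (adjusted p = 0.0029) and 2.99 ± 0.81 against EHF (0.016), with pooled ratios of 34.8 (6.03 to 1400) and 10.2 (3.79 to 38.5); against EV it was 2.43 ± 0.83 (0.086). The call against CDX1 ended without EHF+CDX1 replicate 2 only (4.33, adjusted p = 0.10), and that against EHF ended when replicate 2 of EHF (0.19) or replicate 1 or 2 of EHF+CDX1 (0.059 and 0.22) was left out. At the locus level, with p-values adjusted over loci, the call against CDX1 (0.0087) also ended without any of the 3 CDX1 libraries (0.053 to 0.059) and that against EHF (0.031) without any of the 3 EHF libraries (0.05 to 0.22). The same region also falls within 10 kb of ECH1.

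The 3 CEACAM genes encode carcinoembryonic antigen-related adhesion proteins, and each had 1 region, downstream of its gene. At CEACAM6 the region held 10, 45 and 5 counts in EHF+CDX1, against 2, 1 and 0 in EV, 1, 7 and 2 in the EHF line and 3, 4 and 2 in the CDX1 line. It was the only member region called against EV, with a log2 fold change of 2.77 ± 0.83 (adjusted p = 0.044) and a pooled ratio of 8.31 (2.71 to 41.4), and all 3 EHF+CDX1 libraries were above the 9 others. That call ended when replicate 1, 2 or 3 of EV (0.056, 0.24 and 0.14) or replicate 1 or 2 of EHF+CDX1 (0.06 and 0.34) was left out. CEACAM1 held 4, 19 and 2 counts in EHF+CDX1, against 1, 0 and 0 in EV, 3, 0 and 0 in the EHF line and 4, 1 and 0 in the CDX1 line, and its log2 fold change against EV was 2.93 ± 1.37 (adjusted p = 0.25). CEACAM5 pooled 3, 5, 2 and 37 counts in EV, EHF, CDX1 and EHF+CDX1 (against EV 2.08 ± 0.97, adjusted p = 0.25). Neither passed the threshold in any comparison.

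MALL, which encodes a proteolipid of the MAL family, had the highest pooled count of the group. Its 6 regions held 67, 129 and 42 counts in EHF+CDX1, against 15, 49 and 16 in EV, 39, 59 and 31 in the EHF line and 39, 55 and 19 in the CDX1 line. The levels of 24.8 ± 8.76, 29.4 ± 5.91, 28.7 ± 7.5 and 34.7 ± 5.31 CPM overlapped, and the log2 fold change against EV was 0.43 ± 0.29. MUC12, a membrane-bound mucin, pooled 57, 72, 55 and 134 counts, with a log2 fold change of 0.08 ± 0.40 against EV, and 2 of its 3 regions lay inside MUC3A. MUC13, MUC17, PHGR1 and TMIGD1 had no region.

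Among genes of the brush border cytoskeleton and its adhesion proteins, 8 of 9 had a region, with 26 regions in all, and the locus differences between EHF+CDX1 and EV were smaller, with a median log2 fold change of 0.51 and a range of -0.72 to 1.59. PLS1, a plastin that bundles the actin cores of microvilli, was the only locus of the group that was called. It held 41, 130 and 26 counts in EHF+CDX1, against 7, 18 and 10 in EV, 16, 31 and 17 in the EHF line and 12, 19 and 10 in the CDX1 line. The levels were 21.6 to 29.5 CPM in EHF+CDX1, compared with 7.63 to 15.1 for EV, 12.6 to 15.6 for EHF and 9.18 to 11.8 for CDX1, without overlap between EHF+CDX1 and any other line. The log2 fold change was 1.27 ± 0.34 against CDX1 (adjusted p = 0.035), 1.14 ± 0.35 against EV (0.062) and 0.86 ± 0.32 against EHF (0.16). The call ended when replicate 3 of EV (0.052), replicate 1, 2 or 3 of CDX1 (0.094, 0.25 and 0.084) or replicate 1 or 2 of EHF+CDX1 (0.062 and 0.24) was left out.

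EPS8, an actin-capping and bundling protein of microvillus tips, had the most regions of all members, 8, and the highest pooled count. That count includes the region chr12:15882188-15882453, which also lay inside the neighbouring gene STRAP. This region pooled 42, 87, 54 and 116 counts in EV, EHF, CDX1 and EHF+CDX1, so the rank is not that of EPS8 alone. The locus held 68, 255 and 56 counts in EHF+CDX1, against 23, 62 and 14 in EV, 43, 93 and 41 in the EHF line and 23, 83 and 18 in the CDX1 line. Its log2 fold change against EV was 0.66 ± 0.28 (adjusted p = 0.20), and EV (21.1 to 42.8 CPM) overlapped EHF+CDX1 (40.4 to 57.8 CPM), whereas the EHF and CDX1 libraries lay just below it, at no more than 39.4 and 40.1 CPM. Within it, the region chr12:15712865-15713015, in an exon 53 bases from an annotated alternative start, held 7, 31 and 4 counts in EHF+CDX1, against 0, 1 and 0 in EV, 1, 0 and 0 in the EHF line and 2, 1 and 0 in the CDX1 line. That region was called against EHF (log2 fold change 4.06 ± 1.21, adjusted p = 0.032), with a pooled ratio of 26.7 (4.54 to 1080), and not against EV (3.69 ± 1.26, 0.086) or CDX1 (2.58 ± 1.04, 0.16). It passed the filter on low counts only through EHF+CDX1 libraries, so these differences partly follow from the filter and are no independent support. The call ended when replicate 2 or 3 of EHF (0.20 and 0.11) or replicate 1 or 2 of EHF+CDX1 (0.057 and 0.25) was left out. By contrast, the region nearest the main EPS8 start held 7, 4 and 2 counts in EV and 13, 26 and 6 in EHF+CDX1, and its log2 fold change was 0.50 ± 0.59.

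CDHR5, a protocadherin of the links between microvilli, had the largest difference from EV in the group. It held 23, 27 and 6 counts in EHF+CDX1, against 6, 2 and 0 in EV, 4, 13 and 4 in the EHF line and 5, 9 and 3 in the CDX1 line, for a log2 fold change of 1.59 ± 0.64 (adjusted p = 0.18), and EV replicate 1 (6.54 CPM) overlapped the EHF+CDX1 libraries (4.99 to 13.7 CPM). Its only region lay inside the neighbouring gene IRF7. The remaining loci did not pass the threshold in any comparison. CDHR2, the partner protocadherin, pooled 51, 112, 105 and 134 counts in EV, EHF, CDX1 and EHF+CDX1, all inside RNF44. MYO7B, a myosin of the tip links, pooled 44, 74, 55 and 127 counts, part of them inside IWS1, and USH1C, the scaffold harmonin, 19, 29, 23 and 46. EZR, which ties the membrane to actin, pooled 23, 43, 40 and 100 counts, while the actin bundler ESPN pooled 41, 63, 62 and 56 and had the lowest log2 fold change of the group against EV (-0.72 ± 0.41). MYO1A, the brush border myosin, had no region.

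Of 8 transport genes only CA2, a carbonic anhydrase, had a region. The locus held 33, 100 and 31 counts in EHF+CDX1, against 19, 42 and 15 in EV, 24, 63 and 34 in the EHF line and 24, 62 and 18 in the CDX1 line, and its mean levels lay between 22.7 and 26.3 CPM in the 4 lines. No difference was detected, with a log2 fold change of -0.12 ± 0.29 against EV and pooled ratios of 0.897 (0.679 to 1.19) against EV, 0.862 (0.677 to 1.10) against EHF and 0.858 (0.667 to 1.11) against CDX1. The CA2 region with the smallest p against EV, chr8:85464140-85464290 in an intron, gave -0.57 ± 0.60. The carriers SLC26A3, SLC9A3, SLC5A1 and SLC15A1, the water channel AQP8, CA1 and CLCA4 had no region.

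MTTP, which encodes the transfer protein that loads lipid onto apolipoprotein B, held 21, 46 and 17 counts in EHF+CDX1, against 8, 12 and 5 in EV, 15, 26 and 14 in the EHF line and 15, 36 and 16 in the CDX1 line. The CDX1 libraries were the highest (14.3 to 19.0 CPM) and did not overlap EV (7.53 to 8.72 CPM), and the log2 fold change of CDX1 against EV was 1.03 ± 0.40 (adjusted p = 1.0). EHF+CDX1 against EV gave 0.54 ± 0.40 (adjusted p = 0.50) and against CDX1 -0.48 ± 0.34. Of its 3 regions, 2 lay inside TRMT10A, among them chr4:99563977-99564150, whose log2 fold change against EV was 1.02 ± 0.75. APOA1, the apolipoprotein of high-density lipoprotein, pooled 18, 26, 23 and 38 counts, with a log2 fold change of -0.12 ± 0.61. FABP1 and APOB had no region.

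Over all members, EHF against EV gave no call among 57 regions (0.00995% of all 30154 regions tested) or 22 loci (0.00759% of 13176 loci tested), and 2 regions and 0 loci had an unadjusted p under 0.05. CDX1 against EV likewise gave no member call, against 0.0% of all regions and 0.0152% of all loci, with 3 regions and 2 loci at an unadjusted p under 0.05. DESeq2 and limma-voom also called none in either comparison. Median log2 fold changes were 0.16 and 0.00 over regions, where library-size scaling without trimmed means gave -0.41 and -0.65, so no direction is read from them.

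For EHF+CDX1 against EV, 1 member region and 3 member loci were called, or 1.75% and 13.6%, where 2.59% of all regions and 2.24% of all loci were called. Against EHF, 4 regions and 4 loci were called (7.02% and 18.2%), with 4.35% and 2.07% of all regions and loci. Against CDX1 it was 1 region and 4 loci (1.75% and 18.2%), with 2.62% and 1.59%. The region shares were thus near or below the background in 2 of the 3 comparisons, and each locus share rests on 3 or 4 genes. All 17 calls were higher in EHF+CDX1, and they fell on 7 genes. The called loci of 3 genes, CEACAM6, GUCY2C and LGALS4, consist of 1 region each. Each of their locus calls, at LGALS4 against both EHF and CDX1, repeats the region call of the same comparison.

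The members as a group had mostly positive values, but some regions, among them the called regions at GUCY2C and EPS8, passed the filter only through EHF+CDX1. Without EHF+CDX1 replicate 2, 50 of the 57 members and 27861 of all regions passed it. With EV and EHF libraries alone it was 41 and 26540, and with EV and CDX1 alone 43 and 26583. The region shares, medians and counts without overlap given next therefore partly follow from the filter and are no test of the group. Against EV, 47 of 57 regions (82.5%) and 18 of 22 loci (81.8%) had a positive log2 fold change, where 57.9% of all regions and 60.6% of all loci did, and the medians were 0.82 and 0.64, where those over all regions and loci were 0.18 and 0.16. The region median was smaller when a CPM of 3 was required in 3 libraries, which kept 40 of the 57 regions (0.39, with 0.07 over all regions), and under limma-voom with quantile normalisation (0.42, with 0.01). The 3 EHF+CDX1 libraries alone can also meet that stricter filter. Over the 50 members that passed without EHF+CDX1 replicate 2, the median of the main fit against EV was 0.65. In the same order of settings the region median against EHF was 0.18 and 0.28 in place of 0.70, and against CDX1 0.36 and 0.67 in place of 0.89. The 3 comparisons share the EHF+CDX1 libraries. In 15 of 57 regions (26.3%) every EHF+CDX1 library was above every EV library, where 14.9% of all regions showed this, and in 9 (15.8%) above all 9 other libraries, where 5.32% did. At the locus level it was 9 of 22 (40.9%) against EV, where 14.8% did, and 6 of 22 (27.3%) against all 9, where 3.89% did. The 6 were CEACAM6, DPP4, GUCY2C, MEP1A, PLS1 and TSPAN8. Summed over the 57 regions, EHF+CDX1 had a level of 314 ± 22.7 CPM, EV of 208 ± 14.4, EHF of 242 ± 25.2 and CDX1 of 227 ± 3.01 (SD, n = 3 each).

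**Figure D2:**
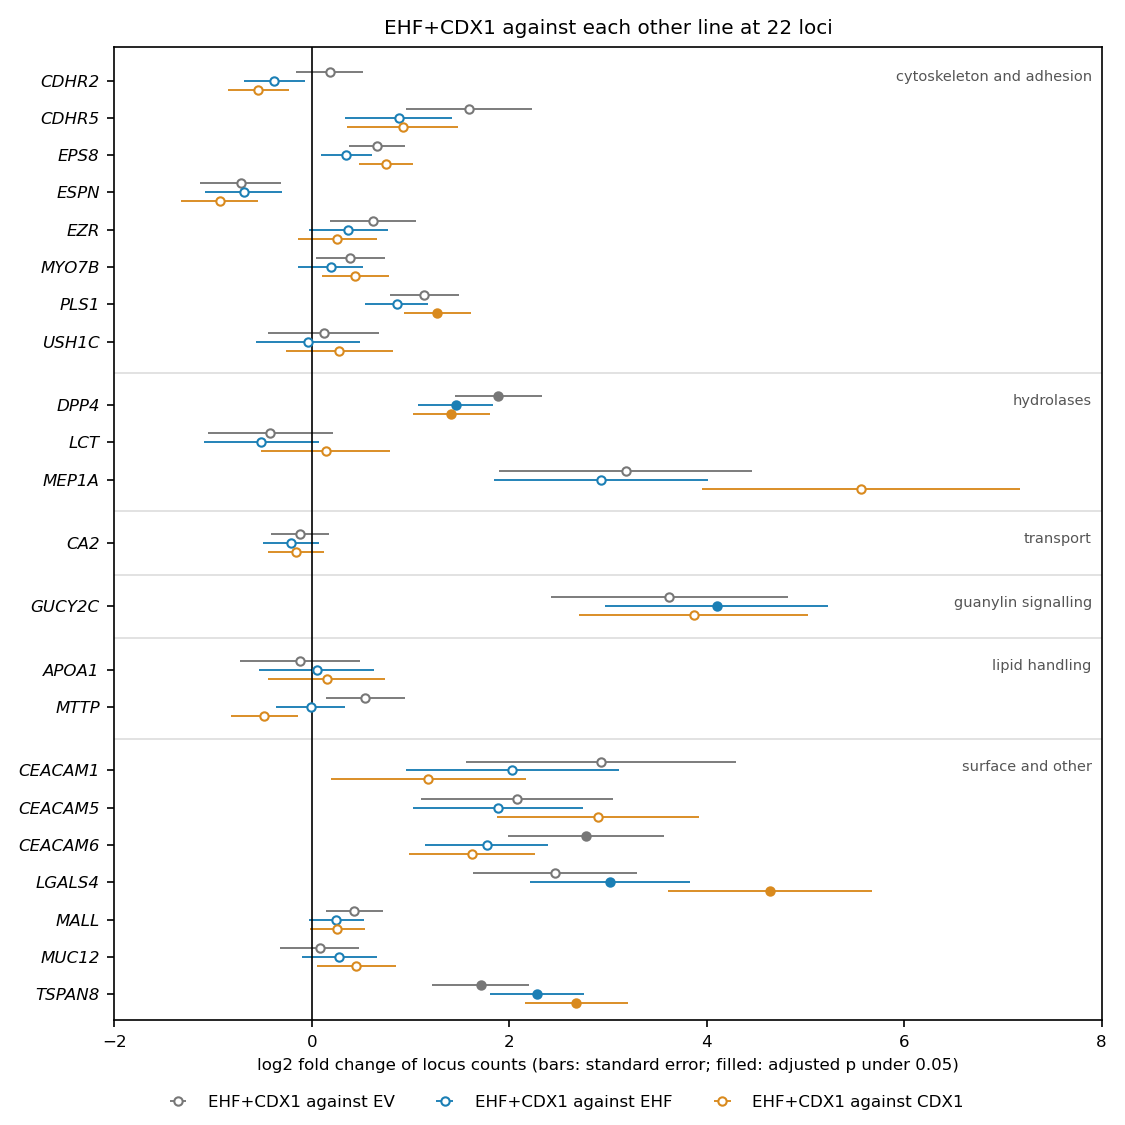
Log2 fold change of EHF+CDX1 against each other line (horizontal axis) at the 22 loci with a region, ordered by role, with bars for the standard error and filled symbols for adjusted p under 0.05. Against EV, CEACAM1, CEACAM5, CEACAM6, LGALS4, GUCY2C, MEP1A, DPP4 and TSPAN8 lie at 1.71 or above, while ESPN, LCT, CA2 and APOA1 lie left of 0 and MUC12 (0.08), USH1C (0.12) and CDHR2 (0.18) just right of it.

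The interaction term, which asks whether the difference made by both factors departs from the sum of the differences made by each alone, gave no member call, where 0.123% of all regions and 0.0% of all loci were called. Unadjusted p was under 0.05 for 5 regions and 3 loci. The smallest adjusted p among the loci was at TSPAN8 (3.25 ± 0.82 on the log2 scale, adjusted p = 0.17), followed by LGALS4 (5.2 ± 1.73, 0.34). The third locus with an unadjusted p under 0.05, CDHR2, had the opposite sign (-1.09 ± 0.46, adjusted p = 0.51). Among the regions the smallest adjusted p was at the CDHR2 locus, chr5:176537342-176537545, and also negative (-2.03 ± 0.65, 0.20). The LGALS4 region came next (5.19 ± 1.68, 0.21).

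Of the 57 regions, 17 lay in exons, 24 in introns, 11 upstream and 5 downstream of the member, 16 lay within 1 kb of the main start of the gene, 22 also fell in the locus of another gene and 12 inside the body of one. The 12 inside another gene had a median log2 fold change against EV of 0.22 and the other 45 of 1.04. Regions within 1 kb of any protein-coding start (31) had a median of 0.64 and the 26 farther away 1.34, where the medians over all regions were 0.20 and 0.17. The 37 regions of the shortest length had a median of 1.38 and the 20 longer ones 0.23, and the same split over all regions gave 0.56 and -0.12. Depth moved with this split, since the shortest members averaged 4.39 counts a library and the longer ones 12.5, and its part in the difference was not tested.

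**Figure D3:**
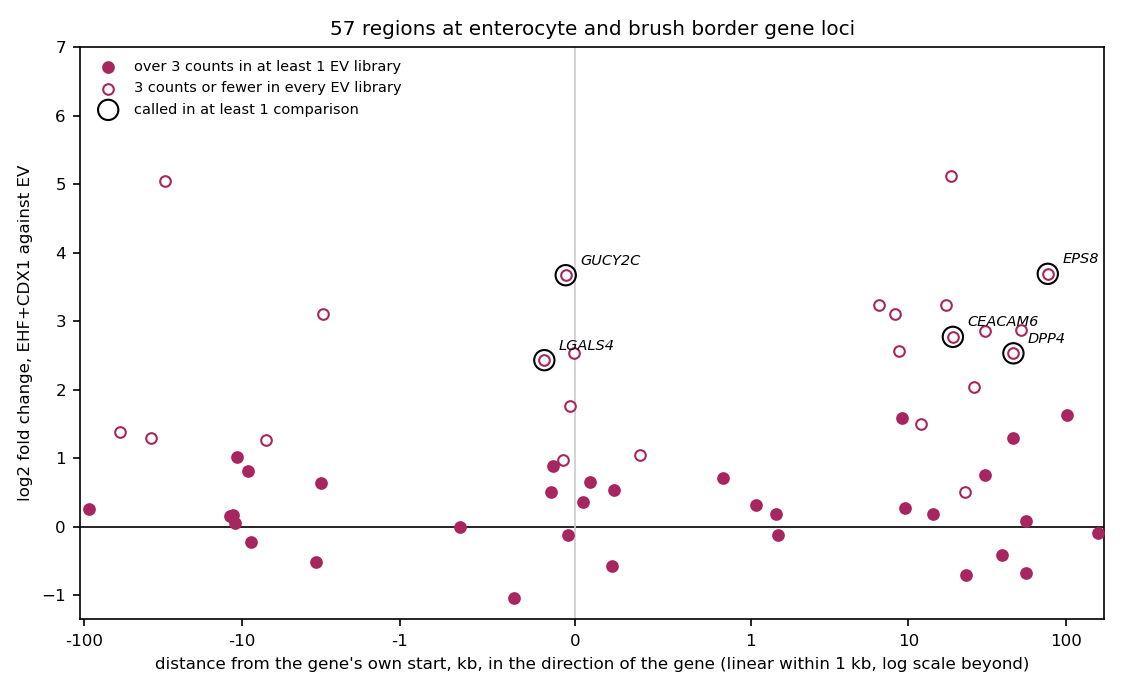
Log2 fold change of EHF+CDX1 against EV (vertical axis) for the 57 regions against distance from the start of their gene in kb (horizontal axis, linear within 1 kb and logarithmic beyond), with open symbols for regions at 3 counts or fewer in every EV library and rings for regions called in any comparison. The 5 ringed regions are open symbols, and the 10 regions below 0 are all filled. Open symbols are chosen by EV counts, and EV is also the denominator of the fold change, so this pattern partly follows from that choice.

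The counts behind these values are small. In 24 of 57 member regions (42.1%) every EV library had 3 counts or fewer, where 24.5% of all regions did, and the median member region held 2 to 7 counts in the 11 other libraries and 23 in EHF+CDX1 replicate 2. The latter library had the highest raw count at 48 of 57 members (84.2%, where it did at 75.2% of all regions) and the highest CPM at 19 (33.3%, against 20.9%).

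Without EHF+CDX1 replicate 2, none of the 17 calls remained. Their log2 fold changes stayed between 1.0 and 4.33, with adjusted p from 0.054 to 0.45, and calls over all regions also fell, to 60 against EV, 74 against EHF and 60 against CDX1 of 27861 tested. Calls over all loci fell to 17, 28 and 6 of 13012 tested, in the same order. Over the 21 loci that could still be fitted, 18 were higher than EV without this library and 17 with it, and the median log2 fold change was 0.60 and 0.62. The median over all loci without it was 0.20. Of the 50 regions still fitted, 38 were higher than EV without this library and 40 with it. Their median was 0.57 and 0.65, and that over all regions without it was 0.07.

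**Figure D4:**
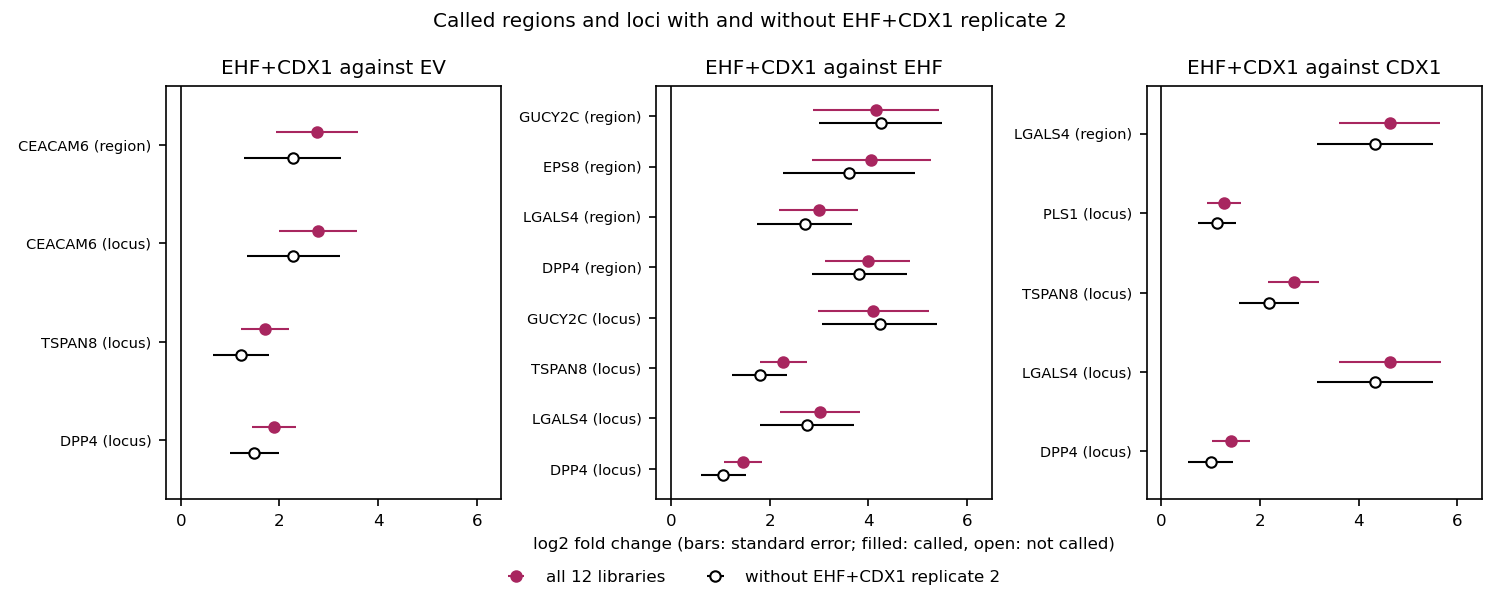
Log2 fold change (horizontal axis, bars for the standard error) of the 17 called regions and loci with all 12 libraries (filled) and without EHF+CDX1 replicate 2 (open), in 3 panels by comparison. All values stay above 0, from 1.0 to 4.33 without that library, and none of the open symbols passed the threshold.

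A second list of 40 genes of absorptive cells that are not members had 21 loci with a region. The APOC3 locus among them consisted of the same region as the member APOA1, so the list is not wholly separate from the members. Against EV, 13 were higher and 8 lower in EHF+CDX1, with a median log2 fold change of 0.28, and 1 passed the threshold. That locus was MME, which encodes another peptidase of the apical membrane. It held 41, 170 and 22 counts in EHF+CDX1, against 12, 9 and 6 in EV, 19, 49 and 11 in the EHF line and 12, 23 and 7 in the CDX1 line, and was higher than in EV by 1.62 ± 0.38 on the log2 scale (adjusted p = 0.014) and than in CDX1 by 1.42 ± 0.35 (0.022). Against EHF, 15 of the 21 loci were higher and none passed, and neither EHF nor CDX1 alone gave a call against EV. Marker loci of other kinds also had positive medians for EHF+CDX1 against EV, with a log2 fold change of 1.72 over the 9 loci of secretory intestinal cells (7 higher, 1 called, FCGBP) and of 0.98 over the 7 epithelial loci (6 higher, none called), both larger than the 0.64 of the member loci. The medians were 0.73 over 3 fibroblast loci and 0.22 over 4 leukocyte loci, none called.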

How the data were processed

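The authors mapped ATAC-seq reads to hg38 with Subread 2.0.0, kept unique reads, called and merged peaks with HOMER 4.7, and deposited raw counts per region from featureCounts 2.0.0. Their log2 CPM files were not used here. The 12 libraries were grouped by label, 3 per line. Regions reaching a CPM of 3 in any library (30154 of 30170) were scaled by trimmed mean of M values and tested in edgeR 4.0.16 by its quasi-likelihood test (two-sided, 1 coefficient per line, Benjamini-Hochberg over all regions, threshold 0.05). For this filter and its stricter form, CPM was taken per 1000000 of the total count of a library, without the trimmed-mean factor used for the levels. Counts summed per gene body ± 10 kb were tested likewise over all 13176 protein-coding genes with a region, with the same effective library sizes. Intervals of pooled ratios are exact at 95%. On counts simulated for EHF+CDX1 against EV, 34 of 100 regions changed 4-fold and 1 of 100 changed 2-fold were recovered among 30154, and 49 and 4 of 100 loci among 13176. The changed features were drawn from the whole table above a minimum mean count, so these shares do not hold for sparse members. Loci were simulated with the spread of regions, which was larger than that fitted for loci. Alternatives included DESeq2 1.42.0 and limma 3.58.1.

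The members and gene lists were chosen with earlier results of these data known. Per-library counts are given for members with a call and, in each role group, for the one with the highest pooled count and the one with the largest difference between EHF+CDX1 and EV among those with 20 pooled counts or more; others are given by pooled counts. TSPAN8 regions, the DPP4 and EPS8 start regions, CEACAM5, LCT, MUC12, APOA1 and ESPN were described further after their values were seen. Some region sequences are not reported here.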

Additional observations from a re-analysis of the deposited data

How the results depend on the processing

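The 17 calls kept their direction under every one of the 23 alternatives that gave them a value, and each was lost in at least 1 of them. In the order EHF+CDX1 against EV, EHF and CDX1, the numbers of called member regions (1, 4 and 1) and loci (3, 4 and 4) became 0, 3 and 0 regions and 2, 3 and 3 loci without flanks, and 4, 7 and 2 regions and 3, 3 and 2 loci with 50 kb flanks. Library-size scaling gave 0, 1 and 1 regions and 0, 0 and 2 loci, and moved the median of all regions from 0.18, 0.09 and 0.14 to 0.19, 0.65 and 0.82 while that of the members became 0.81, 1.32 and 1.61. DESeq2 gave 0, 1 and 0 regions and 1, 1 and 1 loci, limma-voom with quantile normalisation 4, 4 and 4 regions and 0, 1 and 2 loci, and fitting only the lines compared 4, 4 and 4 regions and 3, 4 and 6 loci. A CPM of 3 in 3 libraries gave 0, 3 and 1 regions, and trimmed means without introduced and mitochondrial-like regions gave 1, 4 and 2. Leaving out 1 library at a time gave 0 to 3, 0 to 5 and 0 to 3 regions and 0 to 5, 0 to 4 and 0 to 5 loci. The cause of these changes was not tested. Over all regions, calls against EV numbered 782, against 44 with library-size scaling, 111 with DESeq2, 368 with the stricter filter and 60 without EHF+CDX1 replicate 2. They numbered 715 with limma-voom and 1044 with only the lines compared. Against EHF there were 1311, and in the same order of settings 415, 173, 521, 74, 1115 and 1570.

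With the replicate number as a block, 3, 4 and 2 regions and 5, 5 and 7 loci were called, and 1 locus, TSPAN8, for the interaction, which had no called locus without the block. Calls over all regions rose with the block too, from 782 to 1707 against EV and from 1311 to 1807 against EHF, so the rise is not particular to the members. Same-numbered libraries correlated at -0.01 to 0.29 over 18 pairs, 5 of them over 0.1, and 12 of 12 libraries correlated best with their own number. In the sample titles, libraries with the same replicate number also carry consecutive S numbers across the lines. The titles do not say what these numbers stand for, and the main fits carry no such block.

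Member regions held a median of 2 to 7 counts in 11 of the 12 libraries. At the depth of these libraries 34 of 100 regions simulated with a 4-fold change between EHF+CDX1 and EV were recovered. Those regions were drawn from the whole table above a minimum mean count, and recovery at the members themselves was not estimated.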
